A study of Gallus gallus with 6 samples.

Results

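The 10 transcription factors described here are PAX5, EBF1, IKZF1, IKZF2, IKZF3, BCL6, BCL11A, SPI1, FOXO1 and LEF1. Among them are factors that guide cells into the B lineage and hold them there. Each of the 10 was taken as the row of the deposited tables that carries its symbol, which gave 10 genes of 17108. RNA was sequenced from DT40, a chicken B cell line grown from a bursal lymphoma, in 3 libraries of wild type cells (called Clone 18) and 3 of cells labelled Bach2-/-, each library from an independent culture. All cultures were kept in the same serum-containing medium, and no agent or time course is named. The labels describe neither the disrupted part of Bach2 nor the number of knockout clones. The deposited knockout columns are named Bach2ko1 with a replicate number. With 1 clone, a difference between the genotypes and a difference particular to that clone cannot be told apart.

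B cell identity rests on a small network of factors. EBF1 and PAX5 switch on the genes of the B cell receptor and its signalling proteins, maintain each other's expression in mouse, and PAX5 also silences genes of other blood lineages. The Ikaros family (IKZF1, Ikaros; IKZF2, Helios; IKZF3, Aiolos) consists of zinc finger proteins that bind DNA as dimers and recruit chromatin remodelling complexes. SPI1 (PU.1) is an ETS factor shared by B cells and myeloid cells, FOXO1 is a forkhead factor restrained by PI3K signalling, and LEF1 carries Wnt signals to DNA. BCL6 and BCL11A are zinc finger repressors, of which BCL6 runs the germinal centre programme. BACH2, the gene knocked out here, is a further repressor of B cells that restrains plasma cell differentiation in mouse.

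Total counts ran from 8999010 to 20647281 per library. In BACH2, the targeted gene, the level was 2.67, 2.55 and 2.45 RPKM (reads per kilobase of gene scaled to library size, the authors' values) in wild type replicates 1, 2 and 3, and 1.07, 1.39 and 1.06 RPKM in knockout replicates 1, 2 and 3. The genotypes did not overlap (log2 fold change -1.16 ± 0.20, SE, edgeR adjusted p = 0.00144), and reads remained in every knockout library. Of the 12 rows found for a list of B cell markers, 10 had a mean of at least 1 RPKM, led in the wild type by VPREB3, CD74 and CD79B. The summed level of the 12 rows was 1900.0 to 2160.0 RPKM in the wild type and 1588 to 1749 RPKM in the knockout, without overlap. Single markers went both ways. The largest changes were a fall of CD74 from 402 to 174 RPKM and a rise of IGJ from 123 to 286 RPKM. BLNK, BLK and CD72 also had positive log2 fold changes, and the other tested markers had negative ones. Knockout replicate 1 stood apart from the other knockout libraries on the second principal component, which held 13.9% of the variance. Calls and directions of the members that turn on it are given with and without it.

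Of the 10 factors, 8 were expressed well enough to be tested and 2, IKZF2 and LEF1, were close to or at 0. Of the 8, PAX5, EBF1, IKZF3, BCL6, BCL11A and FOXO1 fell in the knockout (edgeR's quasi-likelihood test, adjusted p under 0.05), and IKZF1 and SPI1 did not pass. Of all 9159 tested genes, 18.0% fell at that threshold. None of the 8 rose by edgeR, where 12.7% of all tested genes did, and 0 rose at an unadjusted p under 0.05 or by DESeq2. The median log2 fold change of the 8 was -0.44, beside -0.0014 over all tested genes. For these same 6 genes every knockout library lay below every wild type library in CPM (counts scaled by the TMM-adjusted library total), as was so for 24.8% of all tested genes. No member had all knockout libraries above the wild type, against 21.4% of tested genes. The members were chosen with earlier results of these data known, so the counts describe them and test nothing about the group.

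**Figure D1:**
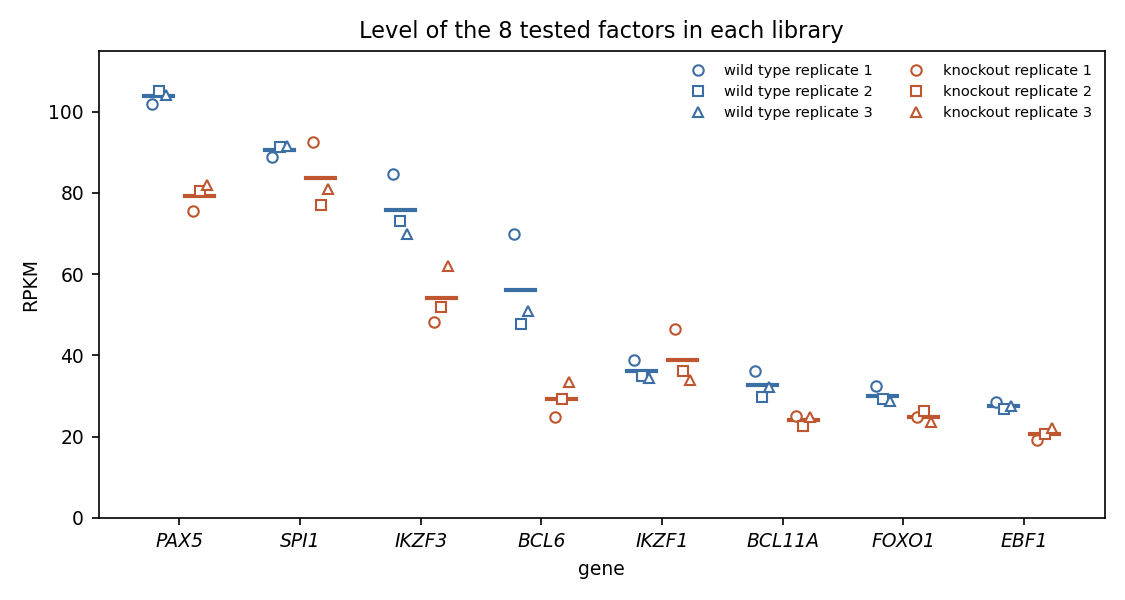
RPKM of the 8 tested factors (vertical axis, linear) in each library, with circles, squares and triangles for replicates 1, 2 and 3 and a bar at the mean of each genotype. PAX5 ran from 102 to 105 RPKM in wild type (blue) and from 75.6 to 81.9 RPKM in the knockout (orange), while the genotypes overlapped for SPI1 and IKZF1.

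In the wild type, the levels of the 8 factors per length lay within a 3.75-fold span. PAX5 was highest at 104 ± 1.64 RPKM (SD, n = 3), followed by SPI1 at 90.6 ± 1.43, IKZF3 at 75.9 ± 7.75 and BCL6 at 56.2 ± 11.97 RPKM. These 4 neighbours in the order did not overlap between libraries. IKZF1 (36.1 ± 2.52 RPKM), BCL11A (32.7 ± 3.27) and FOXO1 (30.1 ± 2.06) followed. IKZF1 overlapped with BCL11A in its range over libraries, and BCL11A with FOXO1. EBF1 closed the order of expressed factors at 27.6 ± 0.910 RPKM, just below the range of FOXO1. PAX5 exceeded 89.9% of the tested genes in wild type RPKM and EBF1 exceeded 66.2%.

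In the knockout the order changed at several places. SPI1 (83.6 ± 8.15 RPKM, SD, n = 3) and PAX5 (79.3 ± 3.29) overlapped there, with SPI1 above PAX5 in knockout replicate 1 and below it in replicates 2 and 3. IKZF1 (38.8 ± 6.64 RPKM) now lay above BCL6 (29.2 ± 4.28), without overlap of their ranges. BCL6 overlapped with FOXO1 (24.9 ± 1.37 RPKM), and FOXO1 with BCL11A (24.1 ± 1.34). EBF1 was again the lowest of the 8 at 20.6 ± 1.48 RPKM. The summed RPKM of the 10 factors was 453 ± 24.9 in wild type and 355 ± 9.58 in the knockout (SD, n = 3 each).

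PAX5, the factor that commits cells to the B lineage, was measured at 102, 105 and 104 RPKM in wild type replicates 1, 2 and 3 and at 75.6, 80.4 and 81.9 RPKM in knockout replicates 1, 2 and 3. All knockout libraries lay well below the tight wild type range. PAX5 fell by 0.42 ± 0.067 (log2, SE; adjusted p = 0.000939 in edgeR), that is to 0.748 of the wild type level, with a 95% interval from 0.675 to 0.828. EBF1, which acts beside it in B lineage specification, had 28.6, 26.8 and 27.6 RPKM in the wild type and 19.2, 20.5 and 22.1 RPKM in the knockout. Its genotypes did not overlap either, and it fell by 0.45 ± 0.081 (log2, SE, edgeR adjusted p = 0.0018).

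PAX5 and EBF1 fell by similar amounts, which left their proportion in each library close to where it was. The ratio of PAX5 to EBF1 in RPKM was 3.57, 3.93 and 3.77 in wild type replicates 1, 2 and 3 and 3.94, 3.91 and 3.70 in knockout replicates 1, 2 and 3. The ranges overlapped, and the mean log2 ratio was 0.036 higher in the knockout (exact permutation test, two-sided, p = 0.6). With 3 libraries against 3 this test cannot give a p below 0.1. Over single libraries left out, the difference in log2 ratio ran from -0.00065, without wild type replicate 1, to 0.069.

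IKZF3 (Aiolos), which is most abundant in later B cell stages in mouse, had 84.6, 73.0 and 70.0 RPKM in the wild type and 48.2, 52.0 and 62.0 RPKM in the knockout. The highest knockout library stayed below the lowest wild type library. IKZF3 fell by 0.52 ± 0.10 (log2, SE; adjusted p = 0.0034 in edgeR). IKZF1 (Ikaros), needed for the earliest lymphoid steps in mouse, had 39.0, 34.9 and 34.3 RPKM in the wild type and 46.4, 36.1 and 33.99 RPKM in the knockout. Knockout replicate 1 was the highest of the 6 libraries and the other knockout libraries lay within or just below the wild type range. IKZF1 had a log2 fold change of 0.071 ± 0.11 (SE; adjusted p = 0.660 in edgeR), with a 95% interval from -0.17 to 0.31, and was -0.074 without knockout replicate 1 (adjusted p = 0.407). Across the alternative settings its adjusted p lay between 0.228 and 0.857.

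The ratio of IKZF1 to IKZF3 was therefore higher in the knockout. It was 0.460, 0.479 and 0.490 in wild type replicates 1, 2 and 3 and 0.962, 0.694 and 0.548 in knockout replicates 1, 2 and 3. All knockout libraries lay above all wild type libraries, and knockout replicate 1 lay farthest away. The mean log2 ratio was 0.59 higher in the knockout (exact permutation test, two-sided, p = 0.1, the smallest p that 3 against 3 allows). Without knockout replicate 1 the difference was 0.37, and over all single libraries left out it ran from 0.37 to 0.78.

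IKZF2 (Helios), a family member known mainly from T cells, had 5, 3 and 1 counts in wild type replicates 1, 2 and 3 and 0 counts in every knockout library. It did not reach the count filter. For its summed counts, CPM was taken over the summed library totals without TMM scaling. There the summed wild type level (0.207 CPM) was 3.45-fold the level that 3 counts in all knockout libraries together would give (0.0600 CPM). This ratio leaves counting error out, so it does not set a smallest difference between the genotypes. Exact 95% Poisson limits on the summed counts, which cover counting error only, were 4.12 to 17.1 in the wild type and up to 3.69 in the knockout. Fitted without the filter, edgeR's adjusted p was 0.0504 over 12259 genes. LEF1, a Wnt-responsive factor of early B and T cell precursors in mouse, had 2, 0 and 1 counts in the wild type and 0, 0 and 1 counts in the knockout. The sum was 3 counts in the wild type and 1 in the knockout, at or under 3 counts per genotype, so a difference was not detectable at this depth.

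**Figure D2:**
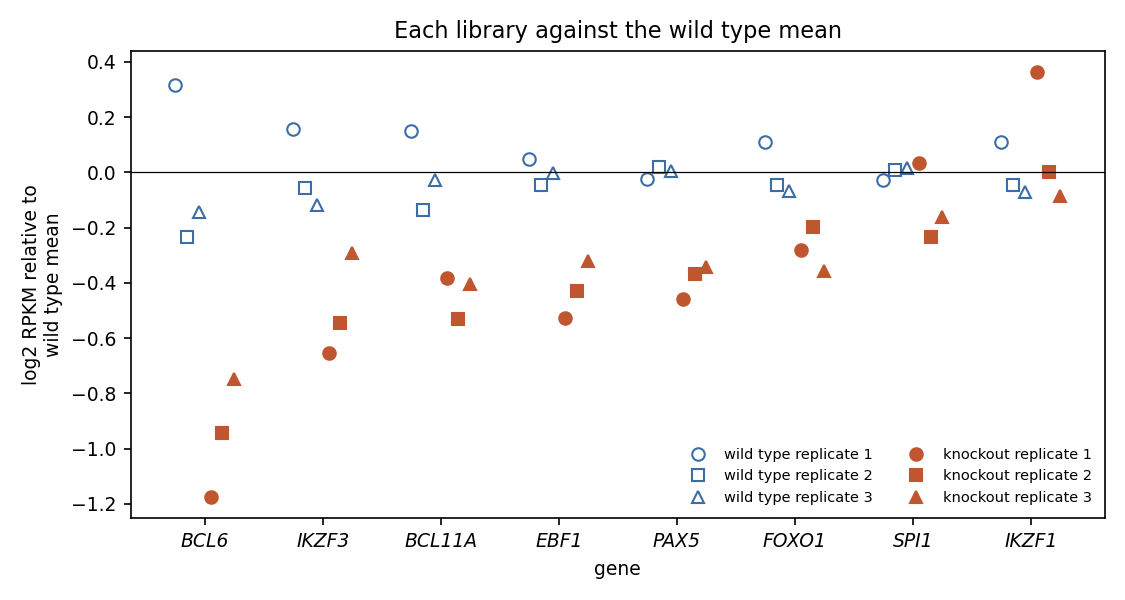
Log2 RPKM of each library relative to the wild type mean (vertical axis) for the 8 tested factors, with open blue symbols for wild type, filled orange symbols for the knockout, and circles, squares and triangles for replicates 1, 2 and 3. Knockout replicate 1 was the lowest library for BCL6 (-1.17) and IKZF3 (-0.65) and the highest for IKZF1 (0.36).

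BCL6, which represses plasma cell genes in germinal centre B cells, showed the largest decrease among the 8 tested factors. It had 69.9, 47.8 and 50.9 RPKM in the wild type and 24.9, 29.2 and 33.5 RPKM in the knockout. Wild type replicate 1 was well above the other wild type libraries, and even the lowest wild type library exceeded every knockout library. BCL6 fell by 0.98 ± 0.14 (log2, SE; adjusted p = 0.000536 in edgeR), to 0.508 of the wild type level with a 95% interval from 0.409 to 0.632. Without wild type replicate 1 the log2 fold change was -0.79. BCL6 also fell relative to PAX5 in the same library. The ratio of BCL6 to PAX5 was 0.686, 0.455 and 0.489 in the wild type and 0.330, 0.364 and 0.409 in the knockout, without overlap. Its mean log2 difference was -0.55 (exact permutation test, two-sided, p = 0.1, the smallest possible) and -0.37 without wild type replicate 1.

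BCL11A, a repressor that mouse B cell precursors need and that silences fetal globin in human red cell precursors, had 36.2, 29.8 and 32.1 RPKM in the wild type. It had 25.1, 22.6 and 24.7 RPKM in the knockout, and the genotypes did not overlap. BCL11A fell by 0.47 ± 0.083 (log2, SE; adjusted p = 0.00171 in edgeR). It is the only member that a gene table of the GRCg7b assembly places on chromosome 3, whose 688 tested genes were lower as a whole with a median log2 fold change of -0.45. Relative to that median, BCL11A was at -0.018 (edgeR adjusted p = 0.893), so its decrease was close to the median of its chromosome. The other tested members lie on chromosomes whose medians ran from -0.061 (chromosome 9, BCL6) to 0.11 (chromosome Z, PAX5). After chromosome 3 genes were set against their own median, 5 of the 8 members fell, beside 13.4% of all tested genes, and 0 rose, beside 12.9%.

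**Figure D3:**
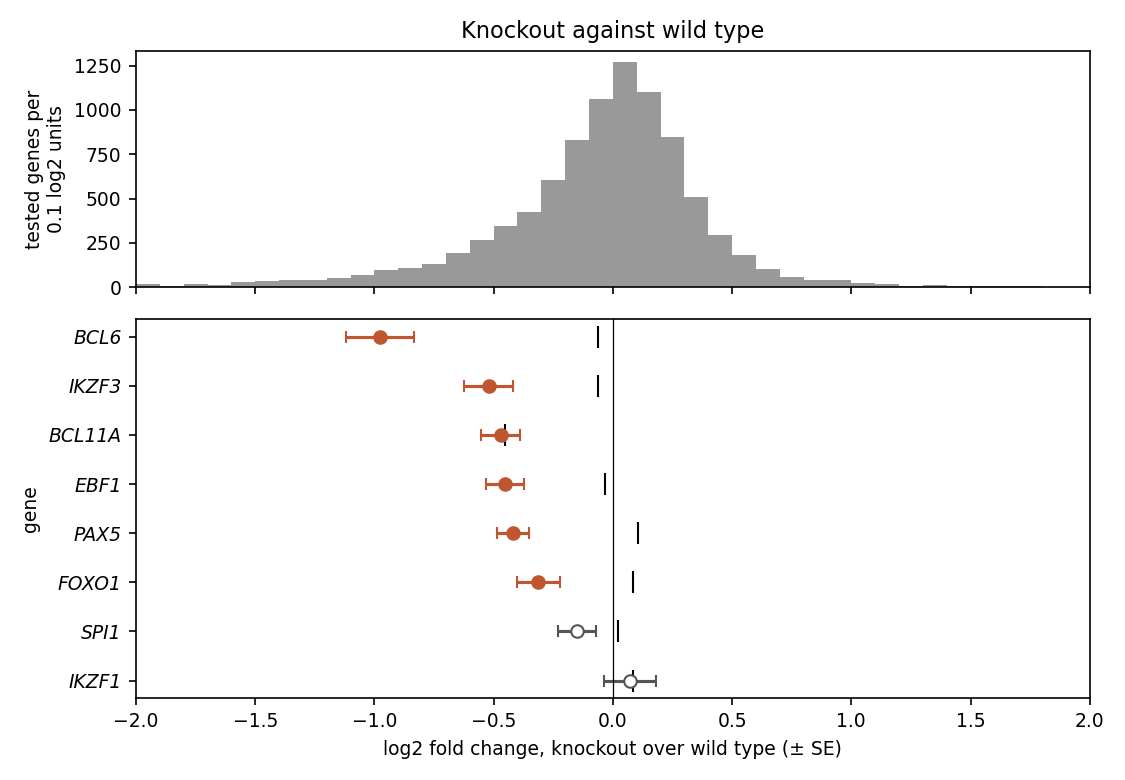
Log2 fold change of knockout over wild type (horizontal axis) as a histogram of the tested genes, shown between -2 and 2, and, below, for each tested factor with its SE, filled where the edgeR adjusted p is under 0.05. The vertical tick in each row is the median of the factor's chromosome; only for BCL11A (-0.47 against -0.45) and IKZF1 (0.071 against 0.083) does it lie within the SE.

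SPI1 (PU.1) had 88.9, 91.2 and 91.6 RPKM in the wild type and 92.7, 76.9 and 81.1 RPKM in the knockout. Knockout replicate 1 was the highest of all 6 libraries in RPKM. In CPM it (133.5) lay below wild type replicates 2 (134.9) and 3 (135.6). The other knockout libraries lay below the wild type range on both scales. SPI1 had a log2 fold change of -0.15 ± 0.079 (SE; adjusted p = 0.180 in edgeR), with a 95% interval from -0.32 to 0.025. Without knockout replicate 1 it was -0.23 and passed (edgeR adjusted p = 0.00833), and across the alternative settings the adjusted p lay between 0.00833 and 0.497. In that fit without knockout replicate 1, 7 members fell, beside 20.7% of all tested genes, and 0 rose, beside 15.8%. FOXO1, which in mouse B cell precursors activates the recombinase genes, had 32.5, 29.1 and 28.7 RPKM in the wild type and 24.8, 26.3 and 23.5 RPKM in the knockout. The genotypes did not overlap, and FOXO1 fell by 0.31 ± 0.089 (log2, SE, edgeR adjusted p = 0.0219). Its call was lost without wild type replicate 1 (adjusted p = 0.0952), wild type replicate 2 (0.0578) or knockout replicate 3 (0.0711), with log2 fold changes of -0.26, -0.33 and -0.26.

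Because the factors did not fall by equal amounts, their shares of the summed RPKM shifted. SPI1 made up 20.04% ± 1.37 of the sum in wild type and 23.6% ± 2.09 in the knockout, and IKZF1 7.96% ± 0.141 and 10.95% ± 1.86 (SD, n = 3 each). Both were higher in every knockout library than in every wild type library. BCL6 went from 12.3% ± 1.91 to 8.24% ± 1.14, again without overlap. The shares of PAX5 (23.0% ± 1.57 and 22.4% ± 1.11), EBF1, IKZF3, BCL11A and FOXO1 overlapped between the genotypes.

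**Figure D4:**
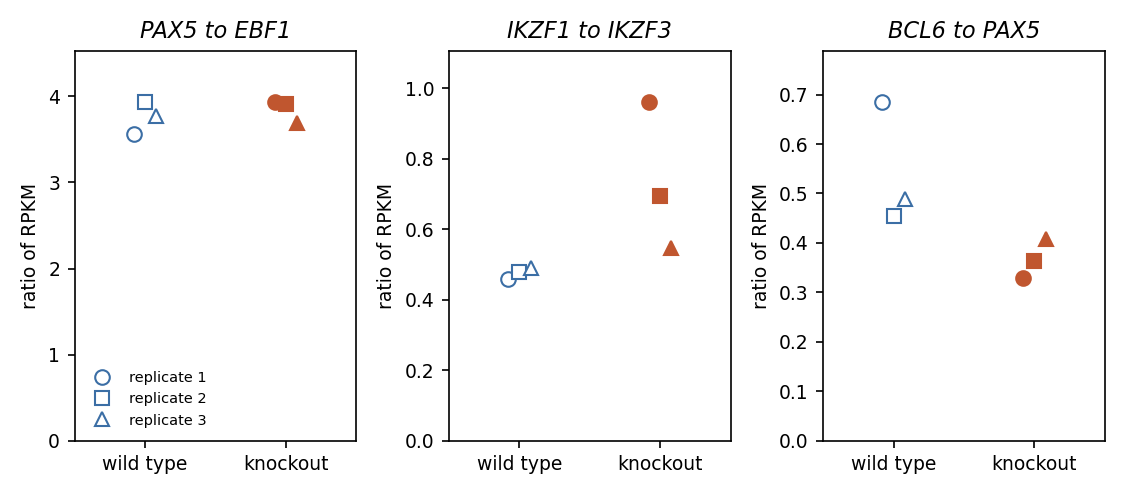
Ratio of RPKM of a pair of factors within each library (vertical axes, linear from 0), by genotype, with circles, squares and triangles for replicates 1, 2 and 3. PAX5 to EBF1 overlapped between the genotypes and ran from 3.57 to 3.94 over all 6 libraries, IKZF1 to IKZF3 was higher in all knockout libraries, and BCL6 to PAX5 was lower in all of them.

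For each tested factor, the most similar gene was the one with the smallest root mean square difference of centred log2 CPM over the 6 libraries. Only tested genes with a proper symbol were searched, so rows without a symbol or with a placeholder or joined symbol were left out. These were SNAP91 for PAX5 (0.0167), FMNL1 for EBF1 (0.0238), ZYG11B for IKZF1 (0.0319) and MEF2D for IKZF3 (0.0332). They were POU2AF1 for BCL11A (0.0295), MAPRE1 for SPI1 (0.0262), ITSN2 for FOXO1 (0.0343) and RNF157 for BCL6 (0.0874). BCL6, which had the largest decrease of the 8, had the least similar nearest gene. SNAP91 and ITSN2 lie on chromosome 3, whose tested genes were lower as a whole. MEF2D and POU2AF1, a partner of octamer factors in B cells, stand in the list of other B lineage factors below. The other nearest genes do not. A close match means a similar profile over the 6 libraries only, and shared regulation was not tested.

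Of 17 listed paralogues of the factors, 10 had a row and 4 were tested. The highest of these 4 was IKZF5, whose RPKM lay below those of all 8 tested factors in every library. BCL11B, SPIC, TCF7 and TCF7L1 had no count in any library, where 3 counts correspond to between 0.147 and 0.339 CPM per library. EBF2 and EBF3 stayed at or below a mean of 0.252 RPKM in each genotype. TCF7L2, a Wnt effector related to LEF1, fell from 1.73 ± 0.359 to 0.533 ± 0.0507 RPKM (SD, n = 3 each; edgeR adjusted p = 0.00028). FOXO6 rose from 0.393 ± 0.0922 to 0.948 ± 0.391 RPKM (edgeR adjusted p = 0.0475), a call lost in 9 of 15 alternatives. FOXO3 (0.648 ± 0.0574 and 0.313 ± 0.340 RPKM) and IKZF5 (4.63 ± 0.468 and 4.89 ± 0.559 RPKM) did not pass. FOXO3 lies on chromosome 3, whose tested genes were lower as a whole. Without knockout replicate 2 (0.697 RPKM), FOXO3 passed with a log2 fold change of -2.26 (edgeR adjusted p = 0.0249).

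The list of other B lineage transcription factors had 25 tested genes, YY1, CTCF and NOTCH1 among them. NOTCH1 also stands in the list of genes repressed by PAX5, so the list is a broad one. Of these 25 genes, 9 fell (36.0%), 1 rose (4.0%) and 15 did not pass. Their median log2 fold change was -0.20. Of the 9 lower genes, IRF8 lost its call in 12 of 16 alternatives and FOXP1 in 8 of 16. RUNX1 lost its call without wild type replicate 1. Beside BACH2, the largest decreases were of STAT5B, a transducer of cytokine signals (-0.73 ± 0.12, log2, SE), and ETS1, an ETS factor of lymphocytes (-0.70 ± 0.074). POU2AF1 fell from 267 ± 18.3 to 194 ± 9.17 RPKM and MEF2D from 36.0 ± 3.05 to 26.3 ± 2.75 RPKM (SD, n = 3 each). The higher gene was YY1 (0.24 ± 0.072), and 0 rose without any 1 of the wild type replicates or without knockout replicate 2. Over the 119 tested genes of all 9 related lists without the members, 35 fell (29.4%) and 16 rose (13.4%), with a median of -0.12. BACH2, the targeted gene, is counted among both the 9 and the 35 lower genes. Of all tested genes 18.0% fell and 12.7% rose, so the share that rose was near that of all genes. The percentages of each list are to be read beside these shares. With single libraries left out, the shares of all tested genes ran from 12.8% to 20.7% lower and from 6.87% to 15.8% higher. The lists, like the members, were written with earlier results of these data known.

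Of 17 tested genes listed as activated by PAX5 or EBF1, 7 fell (41.2%), 3 rose (17.6%) and 7 did not pass. Their median was -0.23. The number that fell was 4 without wild type replicate 1, wild type replicate 2 or knockout replicate 2, beside 12.8% to 13.8% of all tested genes. The number that rose was 1 without wild type replicate 3 or knockout replicate 2, beside 6.87% and 8.10% of all tested genes. CD79B, a signalling chain of the B cell receptor, fell from 392 ± 35.7 to 284 ± 30.9 RPKM (SD, n = 3 each), and NEDD9, an adaptor of cell adhesion, fell by 0.80 ± 0.13 (log2, SE). The higher genes were IGJ, ID3 (0.72) and CD72 (0.39). IGJ, the joining chain of secreted antibodies, rose from 123 ± 15.2 to 286 ± 25.3 RPKM; although entered in this list, it is known in mouse as a gene that Pax5 represses. Of 9 tested genes listed as repressed by PAX5, 3 rose and 3 fell (33.3% each), and 3 did not pass (median -0.0026). Without wild type replicate 1, 1 fell. LMO2 (1.11), EMB (0.52) and XBP1, a driver of antibody secretion (0.41), were higher. LMO2 stayed low, at 0.381 ± 0.0630 RPKM in wild type and 0.861 ± 0.0671 RPKM in the knockout (SD, n = 3 each). SDC4 (-0.93), IFI30 (-0.73) and the adhesion receptor gene CD44 (-0.63) were lower.

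Of 19 tested genes listed as repressed by BCL6, 4 rose (21.1%), 3 fell (15.8%) and 12 did not pass (median -0.11). When any 1 of the wild type replicates was left out, 2 rose. In those fits 6.87% to 6.95% of all tested genes rose, against 12.7% with all libraries. Among the higher genes were the survival gene BCL2 (1.26), the interferon regulator IRF7 (1.03) and MYC (0.39). BCL2 stayed low, at 0.284 ± 0.0646 and 0.718 ± 0.295 RPKM (SD, n = 3 each). The lower genes were ID2, an inhibitor of E proteins (-2.08 ± 0.14), CD44 and BACH2, which is the targeted gene and still counted among the 3. ID2 lies on chromosome 3, and its log2 fold change was -1.63 relative to that chromosome's median. PRDM1, the best known target of BCL6, was below the count filter.

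Of 16 tested FOXO1 targets, 5 fell (31.25%), 1 rose (6.25%) and 10 did not pass (median -0.059). Here 3 fell without wild type replicate 1 or by limma on log2(RPKM + 0.1), and 2 rose without knockout replicate 1. BCL6 itself stands in this list. The chemokine receptor gene CXCR5 fell from 314 ± 30.4 to 174 ± 20.4 RPKM (SD, n = 3 each; edgeR adjusted p = 7.55e-05). RAG2, a subunit of the recombinase (-0.78), the insulin receptor gene INSR (-0.43) and KLF2 (-3.35) were the others, and BTG1, an antiproliferative gene, rose (0.40). KLF2 had 0.741 ± 0.444 and 0.0623 ± 0.0228 RPKM, and the alternative settings gave it log2 fold changes between -3.71 and -0.68. Of 12 tested genes of the LEF1 and Wnt list, 4 fell (33.3%), 2 rose (16.7%) and 6 did not pass (median -0.26). Without knockout replicate 2, 2 fell. The lower genes were ID2, RNF43 (-1.14), NOTUM (-0.96) and CD44, and the higher ones were MYC and CTNNB1, the gene of beta-catenin (0.29).

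Of 14 tested genes listed as SPI1 and myeloid targets, 9 fell (64.3%), 1 rose (7.14%) and 4 did not pass (median -0.51). Without knockout replicate 1, 3 rose, beside 15.8% of all tested genes. Of the 9 lower genes, IRF8 lost its call in 12 of 16 alternatives, BTK in 8 of 16 and CSF2RB in 7 of 15. CYBB and NCF1 encode subunits of the phagocyte NADPH oxidase. CYBB fell from 27.3 ± 4.11 to 10.7 ± 1.36 RPKM (SD, n = 3 each; edgeR adjusted p = 2.58e-05) and NCF1 by 0.58 ± 0.068 (log2, SE). MPEG1, a pore-forming protein of macrophages, fell by 1.10 ± 0.13, while NCF4, a further oxidase subunit, rose by 0.75 ± 0.11. Among 12 rows of macrophage and granulocyte markers, which include CYBB and MPEG1, the summed level was 44.3 to 56.4 RPKM in wild type and 23.0 to 26.4 RPKM in the knockout, and MARCO and CEBPA were at 0. Among 16 rows of T cell markers the sum was 169 to 209 RPKM in wild type and 112 to 142 RPKM in the knockout, most of it CD3D (log2 fold change -0.49), with CD4, CD28, GATA3, BCL11B and TCF7 at 0. CD3E, a chain of the T cell receptor complex, fell from 6.79 ± 1.62 to 0.329 ± 0.152 RPKM, and the tested row of the coreceptor gene CD8A from 3.11 ± 0.744 to 0.153 ± 0.0661 RPKM (SD, n = 3 each), while CD5 fell by 1.64 on the log2 scale. Of 8 rows of erythroid markers 6 were at 0, and the sum reached at most 0.128 RPKM in wild type and 0.280 RPKM in the knockout. Of 9 rows of fibroblast markers 7 were at 0, with sums of 0.626 to 0.790 and 0.456 to 0.999 RPKM. The part of these genes in the results was not tested, and in bulk RNA fewer cells of a type and less RNA per cell cannot be told apart.

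Of 19 tested genes of the chromatin complexes that Ikaros proteins and BCL11A work with, 3 fell (15.8%), 1 rose (5.26%) and 15 did not pass. Their median was -0.048. The number that rose was 0 when wild type replicate 2 or 3 was left out, and 2 when knockout replicate 1 was. BCORL1, a corepressor, fell from 3.88 ± 0.157 to 1.64 ± 0.292 RPKM (SD, n = 3 each; edgeR adjusted p = 0.000122). The NuRD subunit gene MTA3 (-0.34) and the deacetylase gene HDAC2 (-0.34) both lie on chromosome 3 and stood at 0.11 and 0.12 relative to its median, where neither passed. GATAD2A, a further NuRD subunit, rose by 0.27 ± 0.065 (log2, SE). Among the genes of all these lists named here, some calls did not survive the removal of some single library. They were those of FOXO6, YY1, ID3, CD72, SDC4, IFI30, BCL2, RAG2, INSR, RNF43, NOTUM, MTA3 and GATAD2A. The calls of RUNX1, IRF8, FOXP1, BTK and CSF2RB were affected too. Over all 16 alternatives, libraries left out included, the call was lost in 10 for RAG2, 9 for SDC4, 8 for ID3 and 6 for CD72. It was lost in 5 each for YY1, INSR and MTA3, and in 7 of 15 for BCL2. MTA3 also changed sign in 1 more, relative to the median of chromosome 3. With a single library removed, the largest edgeR adjusted p of each gene so affected lay between 0.0611 (GATAD2A) and 0.204 (RAG2).

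**Figure D5:**
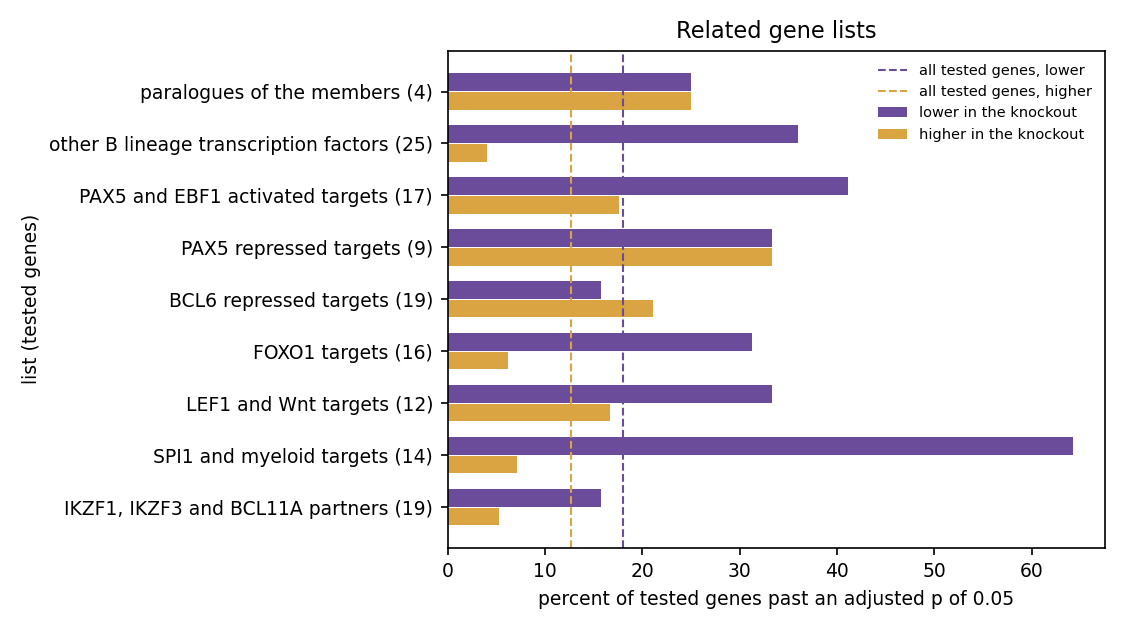
Percent of the tested genes of each related list that fell (purple) or rose (yellow) in the knockout at an edgeR adjusted p under 0.05, with the number of tested genes in brackets and dashed lines at 18.0% and 12.7% for all tested genes. The list of SPI1 and myeloid targets had 64.3% lower, and the lists of BCL6 repressed targets and of chromatin partners had 15.8% each.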

How the data were processed

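Counts and RPKM per Ensembl gene were deposited by the authors in 1 column per library. The deposited RPKM equal the deposited counts times 1 constant per gene and 1 per library. The build galGal4 is named in the submitters' processing notes, with limma, edgeR, Subread (1.5.0), TopHat2 (2.1.0) and bcl2fastq (1.8.4). The role of each, the annotation, the gene lengths and the use of strand are not given in the sources used here, so overlapping or antisense genes may share reads. Libraries were grouped by title, and p-values measure the spread between cultures.

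All 17108 genes entered edgeR 4.0.16 in R 4.3.3 (filterByExpr with a minimum count of 10, TMM, glmQLFit, glmQLFTest on genotype, two-sided, Benjamini-Hochberg over 9159 tested genes, threshold 0.05). The SE is the log2 fold change divided by the square root of F, and intervals use the fit's degrees of freedom. Ratios and shares were computed from RPKM. The edgeR test was checked on counts simulated with the dispersions that edgeR fitted here and with changes in randomly drawn genes. That simulation held no shift of a whole chromosome, so it does not show how the test fares with one. Alternatives used RLE, upper quartile or library totals alone for scaling, other filters, DESeq2 1.42.0, limma 3.58.1 on log2(RPKM + 0.1) and log2(RPKM + 1), a replicate block, single libraries left out and the median of chromosome 3 as an offset. Chromosomes came from a gene table of GRCg7b, which held 13400 of 14007 gene identifiers; as that build differs, no coordinates are given. The genes named are the members, BACH2, all listed paralogues with a row, up to 3 called genes per list with the largest change and a mean of at least 1 RPKM, and the most similar gene of each member. Others complete counts of 5 or fewer, illustrate a list or mark a call that an alternative lost. These were picked with their values in view. Members and lists were chosen with earlier results of these data known. List entries without a row were not analysed here. Some named genes counted in the lists are not reported here.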

Additional observations from a re-analysis of the deposited data

How the results depend on the processing

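The number of members that fell was 6 under each change of scaling, filter or test, and 5 relative to the median of chromosome 3, where BCL11A was lost. With single libraries left out, 5 to 7 members fell and 0 rose, while 12.8% to 20.7% of all tested genes fell and 6.87% to 15.8% rose. The calls of PAX5, EBF1, IKZF3 and BCL6 held in all 16 alternatives each. IKZF1 changed sign without knockout replicate 1 (-0.074 to 0.18 with single libraries left out). The difference in the log2 ratio of PAX5 to EBF1 changed sign without wild type replicate 1 (-0.00065 to 0.069), and IKZF5 without wild type replicate 2 (-0.033) or knockout replicate 1 (-0.051). MTA3 (0.11) and HDAC2 (0.12) changed sign relative to chromosome 3, by the construction of that alternative. Over the related lists, 23 to 41 genes fell and 9 to 21 rose with single libraries left out, with the fewest lower when wild type replicate 1 was removed and the fewest higher when wild type replicate 3 was (10 for the removal of replicate 2). The cause of these shifts was not tested.

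The replicate numbers are shared between genotypes, and the labels do not say that they pair the libraries. The correlations of same-numbered deviations across genes were -0.0042, 0.10 and -0.056. Those of differently numbered libraries ran from -0.068 to 0.066. With 3 libraries per genotype these values cannot exclude a shared day or batch. With the replicate block, 6 members fell and 0 rose, and in the related lists 31 genes fell and 13 rose. Depth limits IKZF2 and LEF1, which had at most 5 counts in a library.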
